A study of Mus musculus with 8 samples.

Results

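A set of 10 genes that mark macrophages in the alternatively activated, or type 2, state was followed in 8 mouse mammary glands: Retnla, Arg1, Mrc1, Chil3, Cd163, Clec10a, Mgl2, Il4ra, Pdcd1lg2 and Stat6. All 10 were measured, among 19938 genes in all. They were chosen by their known roles, with earlier results of these arrays in view, and Retnla was put first with its difference between the genotypes already known, so its values are a description. The measured value that enters the choice is the mean over all arrays, which picks the brightest probe set of a gene, and for these 10 genes it picked nothing, since each has 1 probe set.

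The glands came from virgin, untreated female mice of a C57BL/6 X FVB background, aged 5 weeks, when the ducts grow into the fat pad. MMTV-Cre was present in all 8 mice, a Cre transgene whose viral promoter (mouse mammary tumour virus) acts mainly in mammary epithelium; the labels do not name the Cre line. In 4 mice both Sox9 alleles were floxed (MMTV-Cre;Sox9 flox/flox), and 4 controls had a wild-type and a floxed allele (MMTV-Cre;Sox9 flox/+), so the controls too carry Cre and may lose a copy of Sox9, a transcription factor of epithelial progenitor cells. From each mouse the region of the fourth gland around the lymph nodes was taken, and the RNA of all its cells, ducts, fat, stroma and leukocytes alike, went onto its own Affymetrix Gene 1.0 ST array.

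Macrophages take on this state when interleukin 4 or interleukin 13, made by eosinophils, mast cells, innate lymphoid cells and helper T cells, binds the receptor chain encoded by Il4ra. Janus kinases then phosphorylate STAT6, which enters the nucleus and switches on genes for secreted proteins, enzymes and lectin receptors. In the pubertal gland macrophages gather around the growing duct ends, and macrophages and eosinophils are both needed there for normal branching.

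The array values are intensities on a linear scale without detection calls, and their precision is limited by the 4 arrays per genotype. Sox9 itself read 366 to 448 in the controls and 287 to 356 in flox/flox glands, without overlap, and the labels do not say whether its probes lie in the deleted part. Every gland held signal of the tissue named in the labels, with the luminal keratin Krt8 at 2289 to 2951 and the adipocyte hormone Adipoq at 4949 to 6398. Csf1r, the receptor gene that defines macrophages, read 727 to 1107 in the controls and 731 to 1110 in flox/flox glands. In flox/+ replicate 2 the lymphocyte and lymph node markers stood apart, with a summed intensity of 6645 against 1338 to 1671 in the other 7 glands. The tissue identifiers of the controls begin with R and those of the flox/flox glands with S or T. The labels do not say what these letters mean, so if they mark a batch it cannot be told apart from genotype.

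The promoters of the members are where STAT6 could act, so 3 of them are shown here, from RefSeq on build GRCm38.p6. Each window runs from 250 bases before to 50 bases after a start site of the gene. For Cd163, Mgl2 and Stat6 that site lies inside the gene as annotated, and most of the Mgl2 window does too. Capitals mark a match to the STAT6 motif TTCNNNNGAA or to the related STAT motif TTCNNNGAA. Both motifs read the same on either strand and were searched apart, though matches could overlap. The table held windows for 8 of the 10 members, Arg1 and Clec10a not among them.
Retnla: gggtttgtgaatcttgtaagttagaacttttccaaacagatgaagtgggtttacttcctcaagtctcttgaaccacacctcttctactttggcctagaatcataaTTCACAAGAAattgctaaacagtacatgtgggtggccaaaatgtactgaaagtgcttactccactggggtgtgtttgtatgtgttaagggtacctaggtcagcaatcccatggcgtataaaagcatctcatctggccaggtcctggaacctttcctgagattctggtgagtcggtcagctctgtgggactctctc
Pdcd1lg2: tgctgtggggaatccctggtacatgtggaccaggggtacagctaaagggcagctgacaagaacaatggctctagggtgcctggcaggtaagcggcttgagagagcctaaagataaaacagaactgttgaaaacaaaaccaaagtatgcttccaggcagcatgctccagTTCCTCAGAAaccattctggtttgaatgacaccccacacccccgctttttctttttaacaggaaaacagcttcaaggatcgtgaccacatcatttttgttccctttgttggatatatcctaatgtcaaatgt
Chil3: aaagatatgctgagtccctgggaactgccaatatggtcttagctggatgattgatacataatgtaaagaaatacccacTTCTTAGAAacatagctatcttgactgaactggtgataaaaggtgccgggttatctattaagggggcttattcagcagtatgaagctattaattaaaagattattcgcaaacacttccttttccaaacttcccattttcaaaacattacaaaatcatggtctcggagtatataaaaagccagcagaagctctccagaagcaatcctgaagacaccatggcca
The Retnla window lies at chr16:48842359-48842658 on the plus strand, with its STAT6 match TTCACAAGAA beginning 145 bases before the start. The Pdcd1lg2 window lies at chr19:29410669-29410968 on the plus strand, with the match TTCCTCAGAA beginning 82 bases before the start. The Chil3 window lies at chr3:106167515-106167814 on the minus strand and holds the shorter motif, TTCTTAGAA, beginning 172 bases before the start. Thus 2 of 8 members had the STAT6 motif and 1 of 8 the shorter motif, against 6.95% and 8.30% of all 32851 windows of this length. A match is a run of letters and does not show that a factor binds, and the windows of Mrc1, Cd163, Mgl2, Il4ra and Stat6 held neither motif.

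Retnla was the member that differed most between the genotypes, about 3-fold, while Il4ra and Stat6, the receptor chain and transcription factor of the pathway, had nearly equal means in both. Arg1 was higher in every flox/flox gland by a smaller amount, and Mgl2, Chil3, Mrc1 and Cd163 had higher means in flox/flox with values that overlapped. No member passed limma's test with Benjamini-Hochberg adjustment over all 19938 genes (adjusted p under 0.05), where 8 genes, 0.0401%, passed. Without that adjustment Retnla and Arg1 had p under 0.05, which is 2 of 10 members against 10.3% of all genes, and both were higher. With Retnla set aside, since its difference was known beforehand, the count was 1 of 9.

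Retnla encodes RELM alpha, a small secreted protein of the resistin family that is a standard mark of the type 2 state in mice. Its intensity was 865, 1140, 2177 and 1762 in flox/+ replicates 1 to 4, and 5899, 2750, 5732 and 4055 in flox/flox replicates 1 to 4. All 4 flox/flox glands lay above the highest control, with flox/flox replicate 2 the nearest to it. The flox/+ mean was 1486 ± 594 (SD, n = 4), and that of flox/flox was 4609 ± 1493 (SD, n = 4). The log2 difference, flox/flox minus flox/+, was 1.65 ± 0.30 (SE, 95% interval 0.99 to 2.31), the 5th highest of all genes, or 3.13-fold on the scale of log2(intensity + 16). Its limma adjusted p over all genes was 0.106, which supports nothing because the gene was listed with this difference known.

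Arg1 encodes arginase 1, which turns arginine into ornithine and urea and so competes with nitric oxide synthase for arginine. It read 126, 115, 119 and 116 in flox/+ replicates 1 to 4 and 140, 168, 132 and 222 in flox/flox replicates 1 to 4. The controls lay close together (119 ± 5.22, SD, n = 4), whereas the flox/flox glands spread widely above them (166 ± 40.9, SD, n = 4). The log2 difference was 0.40 ± 0.13 (SE, 95% interval 0.12 to 0.69), with a limma adjusted p of 0.314. Together with Retnla this made 2 of 10 members higher without overlap, against 2.74% of all genes, and 0 of 10 lower without overlap, against 3.16%. Retnla was listed with its difference known, and of the other 9 members 1 was higher without overlap.

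Chil3 encodes the chitinase-like lectin Ym1, which type 2 macrophages of mice secrete. It read 20.6, 43.9, 22.8 and 31.5 in flox/+ and 33.6, 28.9, 40.3 and 41.2 in flox/flox replicates 1 to 4, close to the offset of 16 and not told from background. The highest value was that of a control, flox/+ replicate 2. The log2 difference was 0.21 ± 0.15 (SE, adjusted p = 0.668, limma), and 0.32 with an offset of 1 in place of 16.

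**Figure D1:**
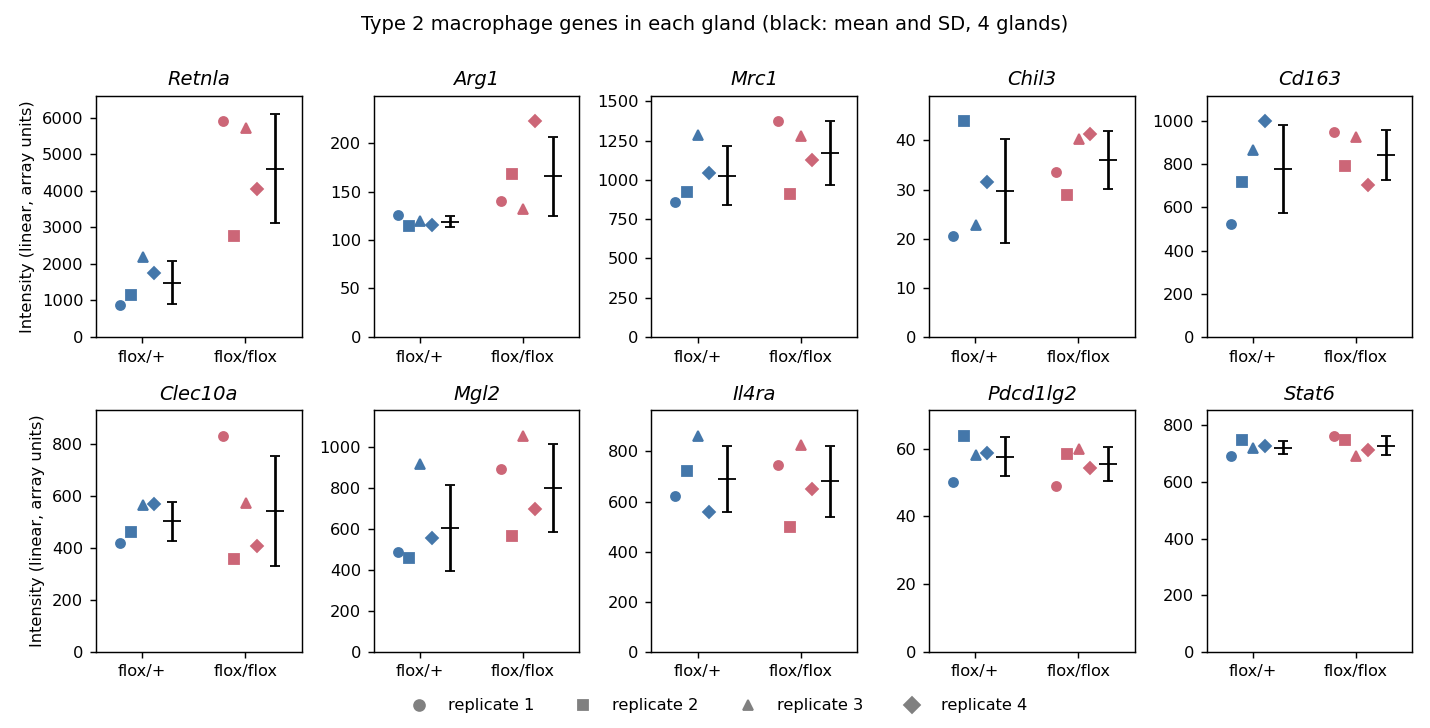
Intensity (linear, array units) of the 10 genes in each gland, with marker shape for the replicate number and black bars for the mean and SD of 4 glands. Retnla and Arg1 have no overlap between the genotypes, while Il4ra, Pdcd1lg2 and Stat6 have nearly equal means.

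Among the receptors, Mrc1, the mannose receptor CD206 that clears glycoproteins, read 861, 922, 1283 and 1042 in flox/+ and 1372, 908, 1278 and 1128 in flox/flox replicates 1 to 4. The groups overlapped, since flox/flox replicate 2 lay below 3 controls. The log2 difference was 0.19 ± 0.15 (SE, 95% interval -0.13 to 0.51).

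Mgl2 and Clec10a encode a pair of galactose-type lectins, MGL2 and MGL1, that lie beside each other on chromosome 11. Mgl2 read 485, 460, 915 and 556 in flox/+ and 895, 564, 1053 and 695 in flox/flox replicates 1 to 4, a log2 difference of 0.42 ± 0.23 (SE, adjusted p = 0.568, limma). Clec10a read 417, 460, 564 and 567 in flox/+ and 829, 358, 570 and 407 in flox/flox replicates 1 to 4, a log2 difference of 0.04 ± 0.22 (SE, 95% interval -0.44 to 0.53). For Clec10a flox/flox replicate 1 was the highest of all glands and flox/flox replicate 2 the lowest, and without flox/flox replicate 1 the log2 difference was -0.18. The probe sets of these related genes were named apart by the annotation, and sharing of signal between them was not tested.

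Cd163 encodes the scavenger receptor for haemoglobin bound to haptoglobin. It read 522, 719, 865 and 998 in flox/+ and 948, 791, 925 and 704 in flox/flox replicates 1 to 4. The controls alone spanned all flox/flox values, and the log2 difference was 0.14 ± 0.17 (SE), or -0.03 without flox/+ replicate 1. Pdcd1lg2 encodes PD-L2, a ligand that dampens T cells through PD-1, and had means of 57.6 ± 5.64 in flox/+ and 55.4 ± 5.00 in flox/flox glands (SD, n = 4). Its log2 difference was -0.04 ± 0.08 (SE), with a 95% interval from -0.22 to 0.13.

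Il4ra, the receptor chain shared by both cytokines, read 621, 721, 860 and 558 in flox/+ and 747, 498, 825 and 652 in flox/flox replicates 1 to 4. Its log2 difference of -0.02 ± 0.16 (SE) had a 95% interval from -0.38 to 0.33. Stat6 varied least of all members, at 692 to 748 in flox/+ and 690 to 762 in flox/flox glands, with a log2 difference of 0.01 ± 0.06 (SE, 95% interval -0.13 to 0.15). For both genes these intervals leave out a change of the size seen for Retnla. The median log2 difference of the 10 members was 0.17, with 8 positive and 2 negative, beside a median of -0.01 over all genes tested. Without flox/+ replicate 1, the gland with the lowest value of 7 members within its genotype, the median was 0.05, and without flox/flox replicate 1 it was 0.10.

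**Figure D2:**
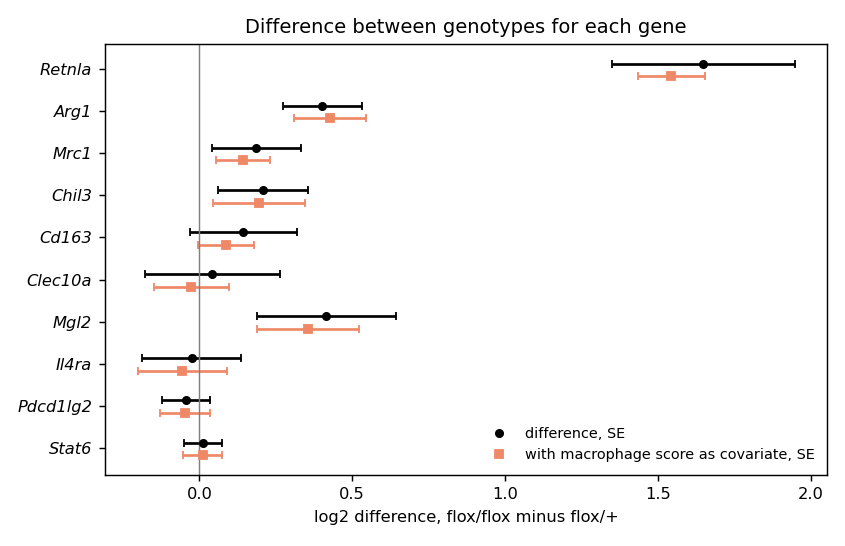
Log2 difference of each gene, flox/flox minus flox/+, with its SE, from the fit of genotype alone (black circles) and with the macrophage marker score as covariate (orange squares). Retnla lies at 1.65 and 1.54, apart from the other 9 genes, which lie between -0.06 and 0.43 in both fits.

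A whole gland holds many cell types, so more macrophages, more RNA per macrophage and RNA of other cells cannot be told apart. General macrophage markers were therefore set beside the members: 20 of 20 were measured, 11 with a positive and 9 with a negative difference, with a median of 0.05. Their summed intensity ran from 10893 to 15599 in flox/flox and from 9901 to 14752 in flox/+ glands, so the genotypes overlapped widely. By the mean z-score of these 20 markers the controls stood at -1.19, -0.23, 0.52 and 0.59 for replicates 1 to 4, and the flox/flox glands at 0.87, -0.72, 0.51 and -0.35.

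Retnla followed this order within each genotype. In flox/flox glands both ran from replicate 2 up through replicates 4 and 3 to replicate 1, and in the controls from replicate 1 through 2, with the order of replicates 3 and 4 exchanged. Flox/flox replicate 2 had the second lowest marker score of all glands and read 2750 for Retnla, and the controls with scores above 0.5 read 2177 and 1762. Relative to the mean log2 level of the 20 markers in the same gland, Retnla stood at 1.07, 1.23, 1.92 and 1.61 in the controls and at 3.28, 2.60, 3.31 and 3.05 in flox/flox glands, again without overlap. With the marker score as a covariate its log2 difference was 1.54 ± 0.11 (SE), and without it 1.65 ± 0.30 (SE). Relative to the same markers, no other member was free of overlap.

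**Figure D3:**
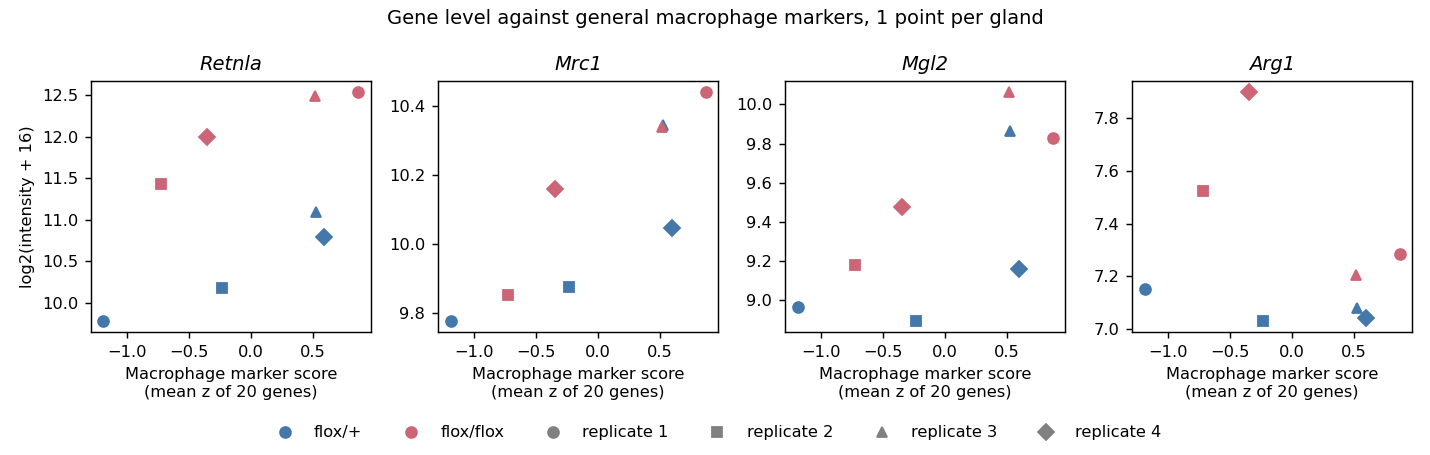
Level of 4 genes, as log2(intensity + 16), against the macrophage marker score (mean z-score of 20 genes), 1 point per gland, coloured by genotype and shaped by replicate. At like scores the flox/flox glands lie above the controls for Retnla, Mrc1 overlaps between the genotypes, and Arg1 is highest in flox/flox replicates 4 and 2, whose scores are below 0.

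The members thus did not vary as a single group. Within the flox/flox glands Retnla, Mrc1, Mgl2, Clec10a and Il4ra were all lowest in replicate 2, and within the controls Retnla, Mrc1, Mgl2 and Il4ra were all highest in replicate 3. Arg1 ran otherwise, highest in flox/flox replicates 4 and 2. Arg2, the mitochondrial arginase, named here after its values were seen, was highest in the same pair of glands, at 496 and 364, against 207 to 232 in the controls. With all 4 flox/flox glands counted Arg2 overlapped the controls, and Arg1 was the only measured gene of arginine and polyamine metabolism higher without overlap. In flox/flox replicate 4 the score of luminal and basal epithelial markers was also the highest of all glands (1.33), whereas in flox/flox replicate 2 it was -0.27. Their part in the Arg1 values was not tested.

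After the genotype means were taken off, the genes most like Retnla over the 8 arrays were F13a1, Fstl1, Myoz3, Maf and 9430060I03Rik, with Pearson's r from 0.986 to 0.994, picked from 9968 other genes above the median level. F13a1, the coagulation factor XIII A chain made by tissue macrophages, had a log2 difference of 0.19 ± 0.17 (SE). Maf, a transcription factor of tissue macrophages, had a log2 difference of -0.18 ± 0.14 (SE). The genes most like Mrc1 in the same way were Qprt, Dab2, Fcgr2b, Gas7 and Ctsc, with r from 0.979 to 0.992. Fcgr2b, the inhibitory receptor for IgG, had a log2 difference of 0.63 ± 0.14 (SE, adjusted p = 0.180, limma). These r describe 8 glands that share 1 normalization, and with so many genes searched high values are found for any gene.

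The rest of the pathway was described by lists from ligand to target. Of 9 measured type 2 cytokines and alarmins 7 were positive and 2 negative, with a median of 0.05, and none was free of overlap. Il4 read 49.1 to 57.7 in flox/+ and 50.5 to 70.3 in flox/flox glands, and Il13 read 166 to 200 and 140 to 207, both named for their role rather than by their values. Unadjusted p was under 0.05 (limma) for 1 of the 9, against 10.3% of all genes. That gene was Il33, named here outside the rule, and it was lower. It read 482 to 802 in flox/+ and 279 to 601 in flox/flox glands, a log2 difference of -0.54 ± 0.22 (SE, adjusted p = 0.440, limma). Of 9 measured genes of the receptor and kinase chain 4 were positive and 5 negative, with a median of -0.01. Without adjustment 1 of the 9 had p under 0.05 (limma), against 10.3% of all genes, and it was higher. This gene, Il13ra1, named here outside the rule, read 423 to 470 in flox/+ and 468 to 618 in flox/flox glands. The log2 difference of Il13ra1 was 0.31 ± 0.09 (SE, adjusted p = 0.272, limma). Of 12 transcription factors of the type 2 state 6 were positive and 6 negative, with a median of -0.04. Cebpb, a factor that macrophages need for Arg1, was the member of that list without overlap, 1 of 12 against 2.74% of all genes. It read 1042 to 1292 in flox/+ and 1327 to 1808 in flox/flox glands, a log2 difference of 0.35 ± 0.10 (SE, adjusted p = 0.282, limma). Without adjustment 2 of the 12 were higher and 1 lower with p under 0.05 (limma), against 10.3% of all genes in either direction. The higher genes were Cebpb and Klf4, the latter named here outside the rule. Klf4 read 443 to 635 in flox/+ and 581 to 835 in flox/flox glands, a log2 difference of 0.48 ± 0.14 (SE, adjusted p = 0.278, limma). The lower gene was Irf4, named here outside the rule, at 275 to 509 in flox/+ and 198 to 344 in flox/flox glands. Its log2 difference was -0.58 ± 0.19 (SE, adjusted p = 0.325, limma).

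Among 17 other measured targets of interleukin 4 and STAT6 in macrophages 12 were positive and 5 negative, with a median of 0.04, and 2 were higher without overlap, against 2.74% of all genes. Alox15 encodes 12/15-lipoxygenase, an enzyme of type 2 macrophages and eosinophils. It read 245, 230, 258 and 239 in flox/+ and 782, 323, 496 and 625 in flox/flox replicates 1 to 4. All flox/flox values lay above the narrow band of the controls, with flox/flox replicate 2 nearest to it, as for Retnla. The log2 difference was 1.08 ± 0.21 (SE, adjusted p = 0.122, limma).

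Ccl24 encodes eotaxin 2, which draws eosinophils. It read 102, 122, 126 and 140 in flox/+ and 230, 184, 187 and 155 in flox/flox replicates 1 to 4, so that the lowest flox/flox gland lay just above the highest control. The log2 difference was 0.56 ± 0.12 (SE, adjusted p = 0.152, limma). Ccl17 and Ccl22, chemokines that draw T cells and are named here as textbook targets, had log2 differences of 0.01 ± 0.06 and 0.04 ± 0.09 (SE).

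The classically activated, or type 1, genes had a median of -0.03 over 16 measured genes, 7 positive and 9 negative. The pair without overlap, 2 of 16 against 3.16% of all genes, was lower in flox/flox: Il1b, the gene of interleukin 1 beta, at 65.8 to 77.9 in flox/+ and 47.6 to 63.9 in flox/flox glands, and Cd40, a costimulatory receptor, at 310 to 328 and 265 to 303. Neither passed the test over all genes (adjusted p = 0.314 and 0.362, limma). Nos2, the inducible nitric oxide synthase named here for its role, read 89.9 to 123 in flox/+ and 93.6 to 141 in flox/flox glands.

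Markers of tissue-resident macrophages had a median of -0.07 over 20 measured genes, 7 positive and 13 negative. Timd4, a receptor of resident macrophages for phosphatidylserine, was lower without overlap, 1 of 20 against 3.16% of all genes. It read 155 to 388 in flox/+ and 116 to 142 in flox/flox glands. Its highest value was in flox/+ replicate 2, the gland with the high lymph node markers. Without adjustment 2 markers of this list were higher and 3 lower with p under 0.05 (limma), against 10.3% of all genes in either direction. Cd209d, named here outside the rule, was higher with overlap, at a log2 difference of 0.51 ± 0.14 (SE, adjusted p = 0.257, limma). Fcgr1, a high-affinity IgG receptor, was lower without overlap, 1 of 20 general markers against 3.16% of all genes. It read 209 to 347 in flox/+ and 188 to 206 in flox/flox glands (adjusted p = 0.324, limma).

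Of the resistin family, Retn, the resistin gene of mouse adipocytes, had equal means within its spread, 3971 ± 606 in flox/+ and 4049 ± 661 in flox/flox glands (SD, n = 4). Retnlg read 62.7, 106, 110 and 93.8 in flox/+ and 132, 104, 148 and 137 in flox/flox replicates 1 to 4, a log2 difference of 0.44 ± 0.15 (SE, adjusted p = 0.332, limma). Retnlb was near the bottom of the scale, at 19.2 to 22.0 in flox/+ and 23.4 to 35.2 in flox/flox glands. Both lie on chromosome 16 with Retnla, and both were highest in flox/flox replicate 3. Whether their probes take up signal from the much brighter Retnla transcript was not tested.

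In the chitinase-like family 4 of 7 measured genes were positive and 3 negative. Chil4, a close relative of Chil3, read 11.4 to 22.1 in flox/+ and 16.4 to 20.9 in flox/flox glands, and Chil1 had a log2 difference of 0.11 ± 0.12 (SE). Chia1, the acidic chitinase gene, was lower in flox/flox without overlap, 1 of 7 against 3.16% of all genes. It read 58.2 to 59.6 in flox/+ and 43.2 to 55.7 in flox/flox glands, as low as Pdcd1lg2 and not told from background. The smallest adjusted p in this family was 0.437 (limma). Of 15 measured mannose receptor and galactose lectin genes 9 were positive and 6 negative, with a median of 0.04. Mrc2, the collagen receptor related to Mrc1, was lower in flox/flox without overlap, 1 of 15 against 3.16% of all genes. It read 502 to 670 in flox/+ and 369 to 501 in flox/flox glands, a log2 difference of -0.42 ± 0.12 (SE, adjusted p = 0.252, limma). Of 12 measured scavenger receptors 6 were positive and 6 negative, with a median of 0.01, and of 11 measured genes of arginine and polyamine metabolism 5 and 6, with a median of -0.02. In the STAT family the 6 measured genes had log2 differences from -0.10 for Stat5a to 0.07 for Stat3, and in the PD-1 and B7 family the 10 measured genes from -0.16 for Cd276 to 0.07 for Ctla4.

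**Figure D4:**
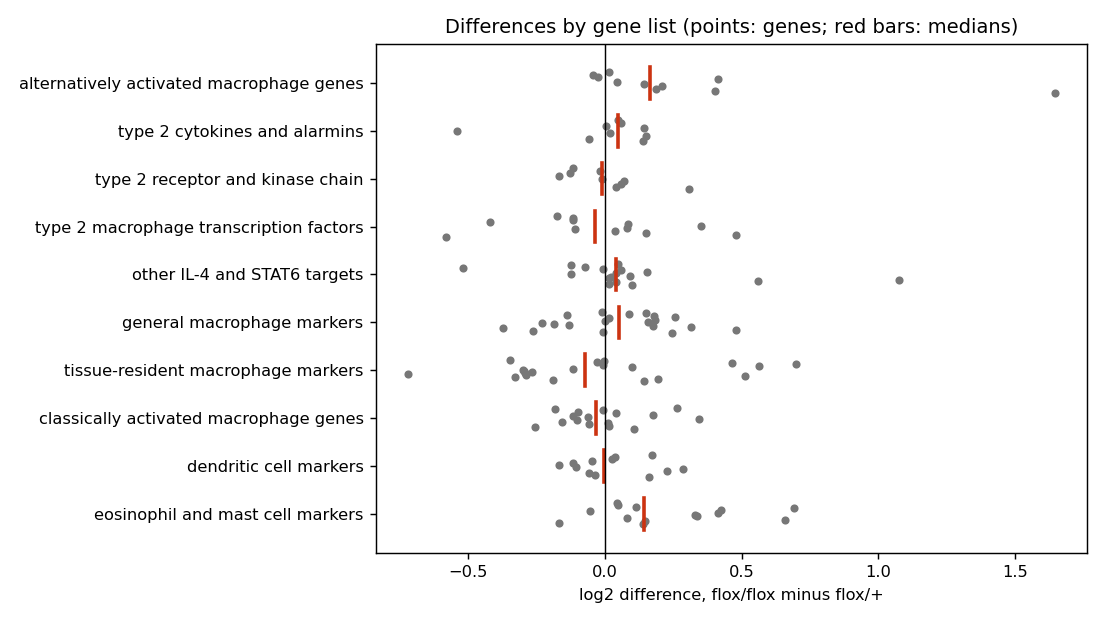
Log2 difference, flox/flox minus flox/+, of every measured gene in 10 lists (points) with the median of each list (red bars). The medians lie between -0.07 and 0.17, and the points far to the right are Retnla at 1.65 and Alox15 at 1.08.

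Eosinophils and mast cells both take part in type 2 responses, and their marker score did not overlap between the genotypes, by a narrow margin. How often the score of a list fails to overlap was not worked out. The marker score ran from 0.0080 to 0.87 in flox/flox and from -0.69 to -0.03 in flox/+ glands. Of 14 measured markers 12 were positive and 2 negative, with a median of 0.14, and 3 were higher without overlap, against 2.74% of all genes. Their summed intensity was 3258 to 4161 in flox/flox and 3019 to 3476 in flox/+ glands. Fcer1a, a chain of the IgE receptor, read 46.9 to 50.5 in flox/+ and 64.7 to 117 in flox/flox glands, and Tpsb2, a mast cell tryptase, read 162 to 232 and 245 to 319. Ccr3, the eotaxin receptor of eosinophils, was the third without overlap and is named here outside the rule, at 62.7 to 77.6 in flox/+ and 82.2 to 191 in flox/flox glands, a log2 difference of 0.66 ± 0.18 (SE, adjusted p = 0.257, limma). The eosinophil granule genes, named here as defining markers, overlapped between the genotypes. Epx read 81.9 to 104 in flox/+ and 100.1 to 113 in flox/flox glands, and Prg2 read 116 to 135 and 99.6 to 127. Siglecf, another marker of this list named outside the rule, overlapped too, at 263 to 273 and 226 to 354. Its mean level stood higher, at percentile 62.0 of all genes. By mean level Fcer1a, Ccr3, Epx and Prg2 stood at percentiles 14.0 to 30.9 of all genes. Without detection calls, signal of these 4 genes was not told from background. The part of eosinophils and mast cells in the Retnla difference was not tested. The summed intensity of white adipocyte markers was 49743 to 58755 in flox/flox and 50732 to 57589 in flox/+ glands, that of dendritic cell markers 1771 to 2134 and 1796 to 2309, and that of the epithelial markers 15971 to 19478 and 15326 to 17826, with wide overlap each time. The medians of these 3 lists were -0.01, -0.00 and -0.02, and that of 12 measured lymphocyte and lymph node markers was -0.21, with 3 positive and 9 negative.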

How the data were processed

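RNA of 8 mammary glands was measured on 8 Affymetrix Gene 1.0 ST arrays. Per the submitters' processing notes, the authors used PLIER and Affymetrix Expression Console 1.0, and what they deposited is a linear intensity per probe set. How background and scaling between arrays were handled is not given in the labels used here. Genotype and replicate came from the sample titles, and 0 columns were unmatched.

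The platform annotation gave 1 symbol to 21789 of 35557 probe sets, several to 1621 and none to 12147. Those with 1 symbol gave 19938 genes, each by its probe set with the highest mean. Values were offset by 16, taken to log2 and quantile normalized, because the 10th percentiles of the arrays spread by 0.245, above a tolerance of 0.1. The difference between genotypes was fitted in limma 3.58.1 under R 4.3.3 with lmFit and eBayes, with Benjamini-Hochberg adjustment over all genes and a threshold of 0.05. No p was adjusted over the members alone and no list was tested as a set. The script was tested on simulated data.

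The members and the 19 other gene lists, of which 214 of 231 genes were measured (members included), were chosen with earlier results of these data known, as were the rules. The text names all members and Sox9, and from each list any gene past the threshold and, of the genes without overlap, up to 2 by smallest unadjusted p, and any gene of the resistin, chitinase-like, STAT and PD-1 families. The 5 genes most like Retnla and Mrc1 are named too. Names outside this rule are marked or show the tissue. A marker score is the mean z-score of a list. The series states 4 females per genotype, so p-values measure the spread between animals. The closing section gives 20 alternative fits.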

Additional observations from a re-analysis of the deposited data

Results flagged for a closer look

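Among 36 groups of 4 arrays examined, 2 for each of 11 genes (the members and Sox9) and 7 marker lists, 1 held an array far from the others. In the flox/+ glands the score of the lymphocyte and lymph node markers had a gap between replicate 2 and the next gland of 0.879 of the whole range, above Dixon's critical value at 95% for 4 samples. The scores were -0.67, 2.01, -0.34 and -0.38 for flox/+ replicates 1 to 4. Chance flags about 1 in 20 such groups. Without flox/+ replicate 2 the log2 difference of Retnla was 1.55 ± 0.33 (SE), and Chil3, which was highest in that gland, had a log2 difference of 0.35.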

How the results depend on the processing

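The log2 difference of Retnla stayed positive in all 20 alternatives, from 1.42 to 1.88 with an array left out, and the median of the members from 0.05 to 0.24. No member passed the adjusted threshold except with the macrophage marker score as covariate, where 1 did, Retnla (adjusted p = 0.000946, limma). In the other alternatives its adjusted p was 0.0654 to 0.321 (limma). All of these support nothing, because Retnla was listed with its difference known. Over the 8 arrays Retnla had r = 0.95 with the marker score after the genotype means were taken off. The count of all genes past the threshold, 8 as reported, was 18 with median centring, 4 with an offset of 1, 19 with an offset of 64, 3 without the lowest 1 in 3 genes, 1 with all probe sets tested, 17 with trend and robust options, 21 with the macrophage score and 5 with the lymphocyte score as covariate, 25 at a threshold of 0.1, and 2 to 19 with an array left out; the cause was not tested. Signs turned for members near 0. Il4ra was 0.013 with the values as deposited, 0.011 with median centring, 0.0020 with the lymphocyte score and -0.12 to 0.11 with an array left out. Clec10a was -0.027 with the macrophage score and -0.18 to 0.21 with an array left out, Cd163 -0.029 to 0.28, Stat6 -0.0082 to 0.038 and Pdcd1lg2 -0.096 to 0.00091.

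With the replicate number as a block the count of genes was 8 and that of members 0. Same-numbered arrays had correlations of their deviations from -0.20 to 0.21, and 1 of 4 flox/flox arrays correlated best with its own number, so the numbers were not taken as pairs. Chil3 and Pdcd1lg2 lie too near the bottom of the scale to be told from background, and they drop out without the lowest 1 in 3 genes.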
